A study of Arabidopsis thaliana with 12 samples.

Results

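The mitochondria-encoded genes of Arabidopsis thaliana were all rows of the expression table whose identifier begins with ATMG. There were 146 of them among 64791 genes and transposable elements. The table came from poly(A) mRNA sequencing of pkl, nrpd1, nrpe1 and wild-type (WT) seedlings, with 3 libraries per genotype. pkl carried the pkl-1 allele of PICKLE, a CHD3-type ATP-dependent chromatin remodeler. nrpd1 carried nrpd1-3 and nrpe1 carried nrpe1-11, alleles of the largest subunits of RNA polymerases Pol IV and Pol V, which act in RNA-directed DNA methylation. All plants, WT included, were 2-week-old seedlings grown on half-strength MS plates at 22 °C with 12 h of light and 12 h of dark. These hours are those of the sample labels, and the study's methods give a longer light period. Each mutant was represented by 1 allele, and whether a library held 1 seedling or a pool was not given in the sources used here. The 3 libraries of a genotype are described as biological replicates, and what separates them beyond that is not given.

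A plant mitochondrion keeps a genome of its own, which encodes its ribosomal RNAs, transfer RNAs, and a minority of the subunits of the respiratory chain, the cytochrome c maturation machinery and the mitochondrial ribosome. The other subunits come from nuclear genes and are imported. Mitochondrial transcripts do not carry the stable poly(A) tail of nuclear mRNAs, and in plant mitochondria added A residues mark an RNA for decay. Several subunit genes, among them nad1, nad2 and nad5 of complex I, are transcribed in separate pieces that are joined by trans-splicing, so that 1 gene can take up several identifiers. In Arabidopsis a large part of the mitochondrial genome is also present as a copy near the centromere of chromosome 2.

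The expression values were RPKM, that is reads scaled to the length of the feature and to the total reads of the library. The libraries held 7204299 to 21475250 reads, recovered from the steps between the RPKM values. PKL, NRPD1 and NRPE1 were checked first. PKL was at 22.7 ± 3.48 RPKM in pkl and 18.3 ± 3.63 RPKM in WT, NRPD1 at 1.03 ± 0.226 RPKM in nrpd1 and 1.42 ± 0.168 RPKM in WT, and NRPE1 at 0.641 ± 0.241 RPKM in nrpe1 and 1.83 ± 0.447 RPKM in WT (SD, n = 3 each). None of the 3 passed the test in its own mutant (limma adjusted p = 0.395, 1.00 and 0.117). NRPE1 was nevertheless lower in all 3 nrpe1 libraries, at 0.394 to 0.874 RPKM, than in WT, at 1.42 to 2.30 RPKM. Which part of each transcript an allele alters was not checked. RBCS1A, a shoot marker, was at 8679 to 11733 RPKM in every library, and the flower and seed markers stayed at or below 3.54 RPKM. Of the root markers, PYK10 was at 995 to 1644 RPKM, and EXP7 was at 1.09 ± 0.613 RPKM in nrpd1 and 5.89 ± 0.293 RPKM in WT (SD, n = 3 each), a log2 fold change of -2.48 (limma adjusted p = 0.00330).

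The files give neither names nor coordinates for the ATMG identifiers. A name was used where the feature length recovered from the values equalled that of the mitochondrial gene or exon in the RefSeq annotation of assembly TAIR10.1, or where that annotation tied a chromosome 2 gene to the identifier. This named 35 of the 146 rows, 18 by length, 9 by the annotation and 8 by both, and the other 111 are given by identifier only. The files were made on TAIR10, so the positions below are those of TAIR10.1. ATMG00020, a feature of 2568 bases, matched no gene. A hand-written list of roles places it with the rRNA genes and it is counted there, but no source used here gives that label.

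The sequences below, read from the RefSeq assembly TAIR10.1, show what lay behind the values at 6 genes that the results turn on. The exon of nad5, a membrane subunit of complex I, that is listed as ATMG00665 is 22 bases long (mitochondrion, 360107 to 360128, plus strand), and it had the highest mean RPKM of the genes other than rRNA on very few reads. It is shown with 20 flanking bases on each side and the exon in capitals. rrn5, the 5S ribosomal RNA (mitochondrion, 126001 to 126118, minus strand), is a complete gene of 118 bases and is shown in lower case with nothing marked.
nad5 exon: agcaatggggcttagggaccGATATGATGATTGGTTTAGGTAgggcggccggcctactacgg
rrn5: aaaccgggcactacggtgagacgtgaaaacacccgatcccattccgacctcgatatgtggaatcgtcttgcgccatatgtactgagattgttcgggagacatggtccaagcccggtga

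The next pair, from cob (apocytochrome b, complex III), is the first 60 bases of the mitochondrial gene (182799 to 182858, minus strand) and of its chromosome 2 copy (3450863 to 3450922, plus strand), with the first codon in capitals. The same is shown for atp1, the alpha subunit of ATP synthase, in the mitochondrion (68562 to 68621, minus strand) and on chromosome 2 (3362505 to 3362564, plus strand). cox1, a core subunit of cytochrome c oxidase (116286 to 116345, minus strand), and nad9, a complex I subunit (24665 to 24724, plus strand), stand for the genes with no such copy.
cob, mitochondrion: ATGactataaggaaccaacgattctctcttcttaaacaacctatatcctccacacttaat
cob, chromosome 2: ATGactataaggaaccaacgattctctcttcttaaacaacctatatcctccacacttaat
atp1, mitochondrion: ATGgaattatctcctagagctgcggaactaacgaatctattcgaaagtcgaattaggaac
atp1, chromosome 2: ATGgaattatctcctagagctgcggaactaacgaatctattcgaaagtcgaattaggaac
cox1, mitochondrion: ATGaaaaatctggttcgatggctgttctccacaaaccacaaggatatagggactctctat
nad9, mitochondrion: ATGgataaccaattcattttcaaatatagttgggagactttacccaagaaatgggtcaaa

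Both copies are identical to their mitochondrial gene in these letters and over the whole gene, with 0 differences in 1182 aligned bases for cob and 0 in 1524 for atp1.

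Mitochondrial genes took 218819 of 210784504 reads, or 0.104% of all reads in the 12 libraries. The share varied widely between libraries of the same genotype. In pkl it was 0.0334%, 0.136% and 0.161% of the reads in replicates 1, 2 and 3. In nrpd1 it was 0.0313%, 0.0406% and 0.0568%. In nrpe1 it was 0.0740%, 0.906% and 0.0971%, against 0.0333%, 0.135% and 0.0506% in WT. nrpe1 replicate 2 stood apart from the other 11 libraries, and replicate 1 was the lowest library of every genotype. nrpe1 replicate 2 was also the shallowest library, with 3.42% of all reads of the series, yet it held 29.8% of all mitochondrial reads. Its share had a 95% Wilson interval of 0.899% to 0.913%, so counting error, the only error that such intervals cover, was small beside the spread between libraries. Below, the nrpe1 share, rrn18, and ATMG00020 and rrn5 within the organelle are also given without this library. The other nrpe1 estimates include it and can rest on it.

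The mean share was 0.110% ± 0.0676 in pkl, 0.0429% ± 0.0129 in nrpd1, 0.359% ± 0.474 in nrpe1 and 0.0730% ± 0.0544 in WT (SD, n = 3 each). On the log2 scale pkl was 0.56 above WT, a ratio of 1.47 (exact permutation test, two-sided, p = 0.500, adjusted over the 3 mutants 0.600). nrpd1 was at -0.55 relative to WT, a ratio of 0.681 (exact permutation p = 0.600). nrpe1 was 1.61 above WT, a ratio of 3.05 (exact permutation p = 0.300), and without nrpe1 replicate 2 it was 0.47 above WT, a ratio of 1.39 (exact permutation p = 0.600). With 3 libraries against 3, the smallest p the test allows is 0.1. None of the 3 differences passed the test. Between libraries of the same number, pkl and nrpe1 were above WT in 3 of 3 pairs and nrpd1 in 1 of 3, and with 3 pairs the exact permutation p can go no lower than 0.250, the value of pkl and of nrpe1. In replicates 1 and 2 the counting intervals of pkl and WT overlapped. In libraries from whole seedlings, fewer cells, fewer organelles per cell, less RNA per organelle and less of it passing the poly-T selection cannot be told apart.

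**Figure D1:**
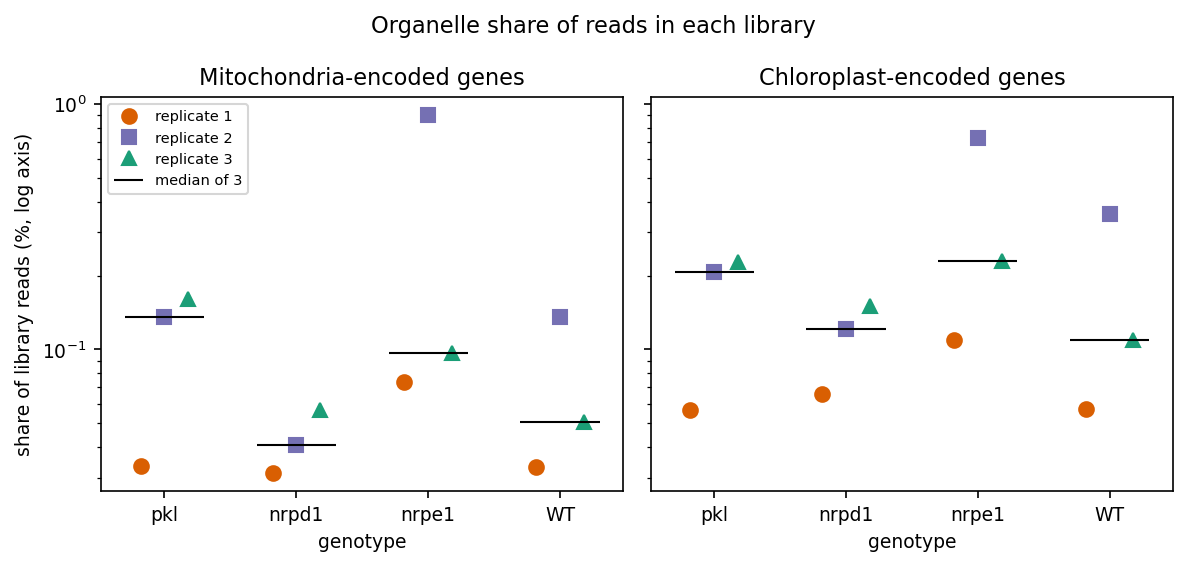
Share of library reads on mitochondria-encoded genes (left) and chloroplast-encoded genes (right), in percent on a log axis, for each library of pkl, nrpd1, nrpe1 and WT. Symbols mark the replicate number and the line is the median of 3 libraries. Replicate 1 is the lowest library of each genotype for both organelles, and nrpe1 replicate 2 is the highest of all at 0.906% mitochondrial and 0.729% chloroplast reads.

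The chloroplast, whose transcripts pass the same selection, moved with the mitochondrion. Chloroplast-encoded genes took 0.0568%, 0.207% and 0.227% of the reads in the pkl libraries and 0.0659%, 0.121% and 0.151% in the nrpd1 libraries. The nrpe1 libraries had 0.109%, 0.729% and 0.230%, against 0.0569%, 0.355% and 0.109% in WT. nrpe1 replicate 2 again had the highest value. The ratio of mitochondrial to chloroplast reads ran over 0.335 to 1.24, with the highest ratio in that library. The part of the poly-T selection in the organelle shares was not tested.

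Nearly all mitochondrial reads fell on rRNA features. ATMG00020 held 63.5% of them over all libraries, rrn18, the ribosomal RNA of the small subunit, 33.6%, and rrn5 0.139%. The other 143 genes shared 6043 reads. ATMG00020 was at 71.7, 347 and 444 RPKM in pkl, 70.4, 82.2 and 102 RPKM in nrpd1 and 192, 2424 and 224 RPKM in nrpe1, against 74.7, 317 and 112 RPKM in WT. rrn18 was at 70.0, 222 and 220.2 RPKM in pkl, 59.2, 90.4 and 144 RPKM in nrpd1 and 114, 1407 and 187 RPKM in nrpe1, against 65.0, 254 and 100.5 RPKM in WT. Both followed the total, with nrpe1 replicate 2 highest and each mutant overlapping WT. rrn5 did not. It was at 4.67, 15.8 and 4.25 RPKM in pkl, 2.29, 14.8 and 30.1 RPKM in nrpd1 and 1.02, 11.8 and 10.2 RPKM in nrpe1, against 2.35, 30.0 and 16.6 RPKM in WT. The highest values of rrn5 came from nrpd1 replicate 3 and WT replicate 2, and nrpe1 replicate 2 lay among the others.

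Within the organelle, ATMG00020 and rrn18 varied less than the total did. Together they held nearly all mitochondrial reads, which limits how far their percentages can move. The far smaller rrn5 did not vary less, with 0.0153% of the mitochondrial reads in nrpe1 replicate 2 and 0.626% in nrpd1 replicate 3. ATMG00020 made up 55.1%, 65.6% and 71.0% of the mitochondrial reads in pkl, 57.9%, 52.0% and 46.2% in nrpd1 and 66.6%, 68.7% and 59.2% in nrpe1, against 57.5%, 60.1% and 57.0% in WT. rrn18 made up 40.6%, 31.6% and 26.5% in pkl, 36.6%, 43.1% and 49.0% in nrpd1 and 29.8%, 30.1% and 37.3% in nrpe1, against 37.8%, 36.3% and 38.4% in WT. The read ratio of ATMG00020 to rrn18 therefore ran over 0.944 to 2.68 while the mitochondrial share ran over 0.0313% to 0.906%. The 143 genes other than rRNA made up 4.09%, 2.61% and 2.46% in pkl, 5.44%, 4.43% and 4.21% in nrpd1 and 3.51%, 1.24% and 3.38% in nrpe1, against 4.62%, 3.30% and 4.18% in WT. The lowest of these was nrpe1 replicate 2, the library with the highest mitochondrial share.

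**Figure D2:**
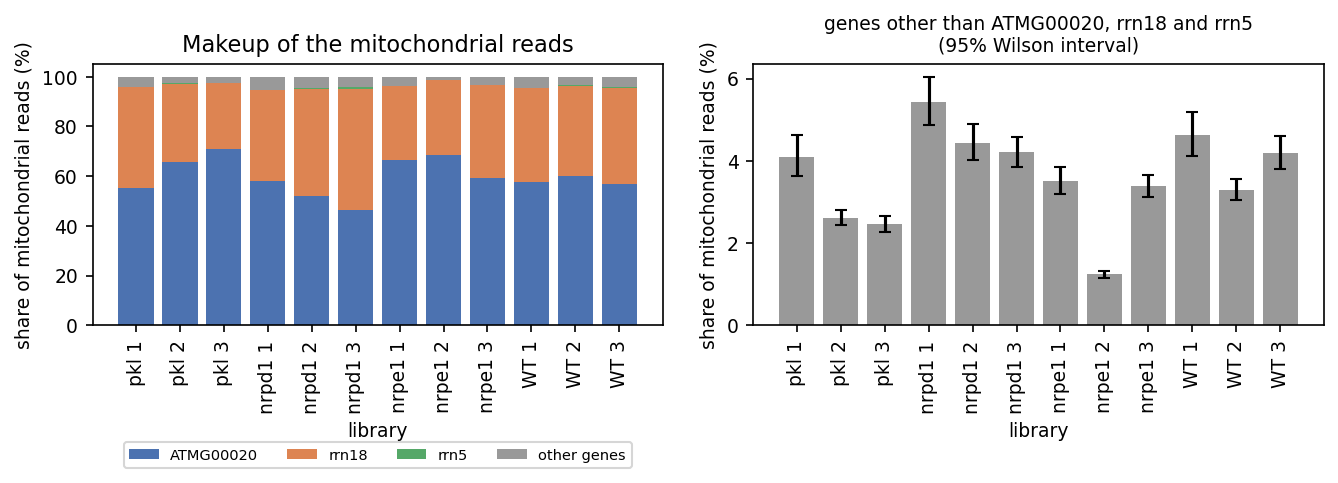
Makeup of the mitochondrial reads in each library, in percent of the mitochondrial reads of that library. Left, stacked bars for ATMG00020, rrn18, rrn5 and the other 143 genes, and right, those 143 genes alone with 95% Wilson intervals, which cover counting error only. The 143 genes made up 1.24% in nrpe1 replicate 2 and 2.46% to 5.44% in the other libraries.

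The excess in nrpe1 replicate 2 was unequal over the genes. Relative to library size, all mitochondrial genes together were 16.0-fold the median of the other 11 libraries. ATMG00020 was 21.6-fold, rrn18 12.3-fold, the 143 genes other than rRNA 4.71-fold and rrn5 1.15-fold the median of those libraries. Chloroplast genes were 6.03-fold. Among the genes with no name here, ATMG00030 was at 41.6 RPKM in this library, which held 97 of its 144 reads, and at 0.167 to 2.13 RPKM in the other libraries. ATMG00670 was at 1.17 RPKM there and at 0.537 to 1.43 RPKM elsewhere. These are values of 1 library and carry no test.

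The protein-coding and unnamed genes were low. Of the 146 genes, 68 had no read in any library and 78 had at least 1, and 26 had a read in all 12 libraries. A count of 0 in all libraries allows up to 1.42e-06% of all reads. In 111 genes no library held more than 3 reads. The reads outside rRNA amounted to 248 to 810 per library, which is the depth behind every value that follows. Complex IV (cytochrome c oxidase, 3 named rows) took 23.1% of these reads, complex I (NADH dehydrogenase, 12 named rows) 20.7%, ribosomal proteins (7 genes) 18.6%, ATP synthase (5 genes) 6.19%, cytochrome c maturation (5 genes) 0.943% and complex III (cob alone) 0.0165%. The 110 genes with no role given took 30.4%. Complex I made up 18.5% ± 3.79 of them in pkl, 18.7% ± 2.18 in nrpd1 and 22.0% ± 2.38 in nrpe1, against 20.4% ± 3.41 in WT. Complex IV made up 21.0% ± 2.08 in pkl, 24.9% ± 2.86 in nrpd1 and 22.5% ± 3.00 in nrpe1, against 23.8% ± 6.94 in WT (SD, n = 3 each). Each mutant's mean lay within 1 SD of WT, and these shares were not tested.

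Among the subunits of complex I, which passes electrons from NADH into the chain, nad9 held 372 reads. nad9 was at 1.83, 3.25 and 2.73 RPKM in pkl, 2.17, 1.57 and 2.43 RPKM in nrpd1 and 2.84, 11.6 and 3.63 RPKM in nrpe1, against 2.04, 5.95 and 2.79 RPKM in WT. The part of nad5 listed as ATMG00060 was at 0.711, 4.90 and 5.89 RPKM in pkl, 0.896, 2.53 and 3.19 RPKM in nrpd1 and 2.00, 12.0 and 4.95 RPKM in nrpe1, against 0.820, 5.33 and 2.85 RPKM in WT. The 22-base exon of nad5 was at 2.50, 6.35 and 0 RPKM in pkl, 4.90, 4.30 and 6.55 RPKM in nrpd1 and 2.74, 50.5 and 4.98 RPKM in nrpe1, against 2.52, 2.98 and 0 RPKM in WT. Those values stand for 24 reads in all and at most 8 in a library, since dividing by so short a length turns single reads into high RPKM, and they allow no order among the genotypes.

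In complex IV, which reduces oxygen, cox1 was the gene with the most reads outside rRNA, 1032 in all. cox1 was at 1.60, 3.85 and 3.68 RPKM in pkl, 1.63, 1.79 and 2.64 RPKM in nrpd1 and 2.86, 11.3 and 3.77 RPKM in nrpe1, against 2.00, 6.38 and 1.40 RPKM in WT. cox2, the other subunit with no nuclear copy, was at 0.563, 2.50 and 2.00 RPKM in pkl, 1.31, 2.54 and 2.58 RPKM in nrpd1 and 1.69, 4.79 and 2.94 RPKM in nrpe1, against 0.780, 4.02 and 1.58 RPKM in WT. In each genotype replicate 1 held the lowest cox2 value, and each mutant overlapped WT. atp4, a subunit of the ATP synthase stalk, was at 0.761, 3.30 and 3.14 RPKM in pkl, 1.58, 1.96 and 2.82 RPKM in nrpd1 and 1.77, 9.83 and 3.97 RPKM in nrpe1, against 1.15, 6.12 and 2.58 RPKM in WT.

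The ribosomal protein gene with the highest mean, rpl16 of the large subunit, was at 1.22, 3.19 and 4.18 RPKM in pkl, 3.00, 1.14 and 2.31 RPKM in nrpd1 and 4.69, 10.8 and 2.33 RPKM in nrpe1, against 2.06, 4.74 and 2.38 RPKM in WT. rps3 of the small subunit, which held 715 reads, was at 0.824, 2.48 and 3.22 RPKM in pkl, 1.58, 1.39 and 1.52 RPKM in nrpd1 and 1.99, 9.97 and 1.64 RPKM in nrpe1, against 1.03, 2.12 and 1.66 RPKM in WT. In both genes nrpe1 replicate 2 was highest and each mutant overlapped WT. Of the cytochrome c maturation genes, which attach heme to c-type cytochromes, ccmB was the highest, at 0.0887, 0.225 and 0.303 RPKM in pkl, 0.174, 0.229 and 0.155 RPKM in nrpd1 and 0, 0.224 and 0.264 RPKM in nrpe1, against 0, 0.317 and 0.0829 RPKM in WT. This was at most 3 reads in a library.

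The level of a named gene was ordered by whether its sequence also lies in the nucleus. A copy was counted where the mitochondrial genome of TAIR10.1 aligned elsewhere at 99% identity or more over at least 100 bases. By that measure 72.7% of the mitochondrial genome has a copy on chromosome 2, in a stretch that runs from base 3239038 to base 3509765. The 10 named genes with no base in a copy had mean levels of 0.172 to 245 RPKM, and the 8 of them other than rRNA a median of 3.57 RPKM. rps3, with 9.9% of its bases in a copy, was at a mean of 2.45 RPKM, and rpl16, with 40.6%, at 3.50 RPKM. The 21 named genes with every base in a copy had means of 0 to 1.63 RPKM, a median of 0.0593 RPKM and 416 reads in all, and 20 of them stayed at or below 0.5 RPKM. For cox3, ccmFC, atp9 and nad3 among them, the bases are those of the RefSeq gene, which is shorter than the counted feature. The exception was a piece of nad1 listed as ATMG00516, at 1.63 RPKM. Its region differs from chromosome 2 at 8 of 3829 aligned bases. Only 318 bases of that region were counted, whether a difference lies in them was not checked, and a part in the level was not tested. A row without reads has no recovered length, so it could be named only through a chromosome 2 gene. Genes with neither reads nor a copy could therefore not enter the comparison, and the naming itself can widen the gap. The levels by copy are a description of the named genes and carry no test.

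**Figure D3:**
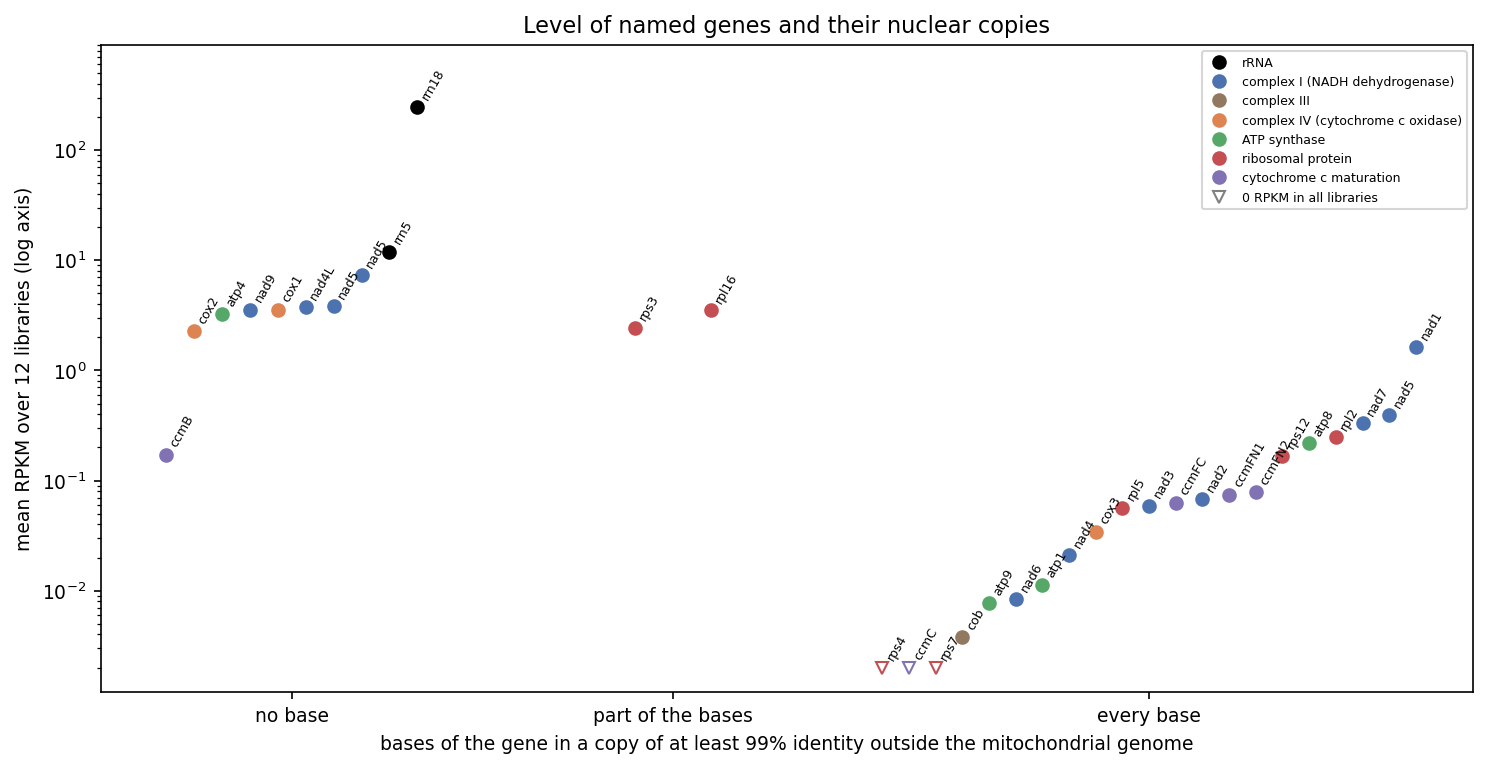
Mean RPKM over 12 libraries, on a log axis, of the 33 named genes whose bases could be placed, in 3 columns by the part of the gene that lies in a copy of at least 99% identity outside the mitochondrial genome. Colors mark the role and open triangles mark genes at 0 RPKM in all libraries. A gene without reads could be named, and so shown, only if it was tied to a chromosome 2 gene. Apart from nad1, genes with every base in a copy lie at or below 0.5 RPKM, and genes with no base in a copy lie above 2 RPKM except ccmB.

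Several of the low genes encode subunits that every plant cell needs for respiration. cob had 1 read in 12 libraries, atp1 2, nad6 1 and cox3 9, and rps4, rps7 and ccmC had 0. The RefSeq gene of nad6, like those of cob, atp1, cox3, atp8 and nad3, is identical to chromosome 2 over its whole length. For cox3 that is 798 bases, while the counted feature has 1447, and the rest of it was not compared. For cob, atp1 and cox3 the nuclear row held more reads than the mitochondrial one. For atp8 the order was the other way, with 2 reads on AT2G07707 and 23 on the mitochondrial row, and nad3 had 6 and 5. AT2G07727, annotated in RefSeq as the chromosome 2 copy tied to cob, had 160 reads and was above 0 in 12 libraries. AT2G07698, tied to atp1, had 244 reads, AT2G07687, tied to cox3, had 55, and AT2G07715, tied to rpl2, had 298 against 48 on the mitochondrial rpl2. In all, 55 nuclear genes were tied to 53 mitochondrial identifiers, and they held 968 reads against 415 on those identifiers. AT2G07727 was at 0.493, 1.80 and 1.01 RPKM in nrpe1, against 0.303, 0.850 and 0.316 RPKM in WT, with its highest value in nrpe1 replicate 2. AT2G07698 was also highest there, at 2.68 RPKM, whereas AT2G07715 was highest in pkl replicate 1, at 0.863 RPKM, and AT2G07687 in WT replicate 2, at 0.460 RPKM. Reads from 2 identical copies cannot be told apart, and how the counting treated reads that align to more than 1 place is not given in the sources used here. The levels of these genes, and the near absence of cob, atp1, nad6 and cox3, are therefore uncertain.

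Nuclear genes for subunits of the same complexes were far higher. The 36 nuclear respiratory chain subunits of the list used here had means of 21.4 to 226 RPKM, with a median of 75.5 RPKM. The 7 rows of mitochondria-encoded subunits with no base in a copy had means of 2.27 to 7.36 RPKM and a median of 3.57 RPKM. The highest of these was the 22-base nad5 exon, on 24 reads in all. The 12 rows with every base in a copy had a median of 0.0469 RPKM. Pieces of nad5 stand in both groups. The part of poly-T selection and of shared reads in this gap was not tested.

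Differences from WT were tested with limma on log2(RPKM + 0.1) over the 23669 features with at least 0.1 RPKM in at least 3 libraries, and a gene was called at an adjusted p under 0.05 and a change of at least 2-fold. Of the 146 mitochondrial genes 49 entered the test, and 16 of those had at most 3 reads in every library. In pkl against WT 0 of 49 were called, against 1.9% of all features. In nrpd1 against WT 0 of 49 were called, against 0.972%, and in nrpe1 against WT 0 of 49, against 0.435%. At an unadjusted p under 0.05 there were 2 genes in pkl, 0 in nrpd1 and 3 in nrpe1. limma on the recovered reads with voom weights also called 0 in each of the 3 comparisons, as did the fit without nrpe1 replicate 2. With so few features called in all, a count of 0 among 49 does not set the mitochondrial genes apart from the rest.

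In pkl 32 of the 49 estimates were above 0 and 16 below, with a median log2 fold change of 0.32 (all features, 0.07) and a lowest adjusted p of 0.264 (limma). In nrpd1 14 were above 0 and 35 below, with a median of -0.29 (all features, 0.04) and a lowest adjusted p of 1.00 (limma). In nrpe1 40 were above 0 and 9 below, with a median of 0.62 (all features, 0.01) and a lowest adjusted p of 0.815 (limma). The genes of a library move together with its mitochondrial share, so these counts of signs repeat the shares above. The fit had no term for the replicate number, so its standard errors and intervals include the differences by number given below. The median standard error of a log2 fold change was 0.61 in these tests, so that most 2-fold changes could not be told from none in this fit.

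The intervals for the single genes show this. cox1 was at a log2 fold change of 0.11 in pkl (95% interval -1.24 to 1.45), -0.39 in nrpd1 (-1.74 to 0.95) and 0.89 in nrpe1 (-0.45 to 2.24). nad9 was at -0.34 in pkl (-1.47 to 0.79), -0.65 in nrpd1 (-1.78 to 0.48) and 0.60 in nrpe1 (-0.53 to 1.73). rrn18 was at 0.35 in pkl (-1.57 to 2.26), -0.37 in nrpd1 (-2.28 to 1.54) and 1.39 in nrpe1 (-0.52 to 3.31), where it was 0.30 without nrpe1 replicate 2. Each of these intervals holds 0 and at least 1 of the values 1 and -1. The genes with an unadjusted p under 0.05 were ATMG00010 (1.12) and ATMG00380 (2.22) in pkl, and ATMG01130 (1.70), nad7 of complex I (1.60) and ATMG01220 (-1.31) in nrpe1, all on the log2 scale and all without a call. ATMG00380 had at most 1 read in a library. nad7 was at 0.611, 1.41 and 0.231 RPKM in nrpe1, against 0.0469, 0.277 and 0.130 RPKM in WT, and the 2 groups overlapped.

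**Figure D4:**
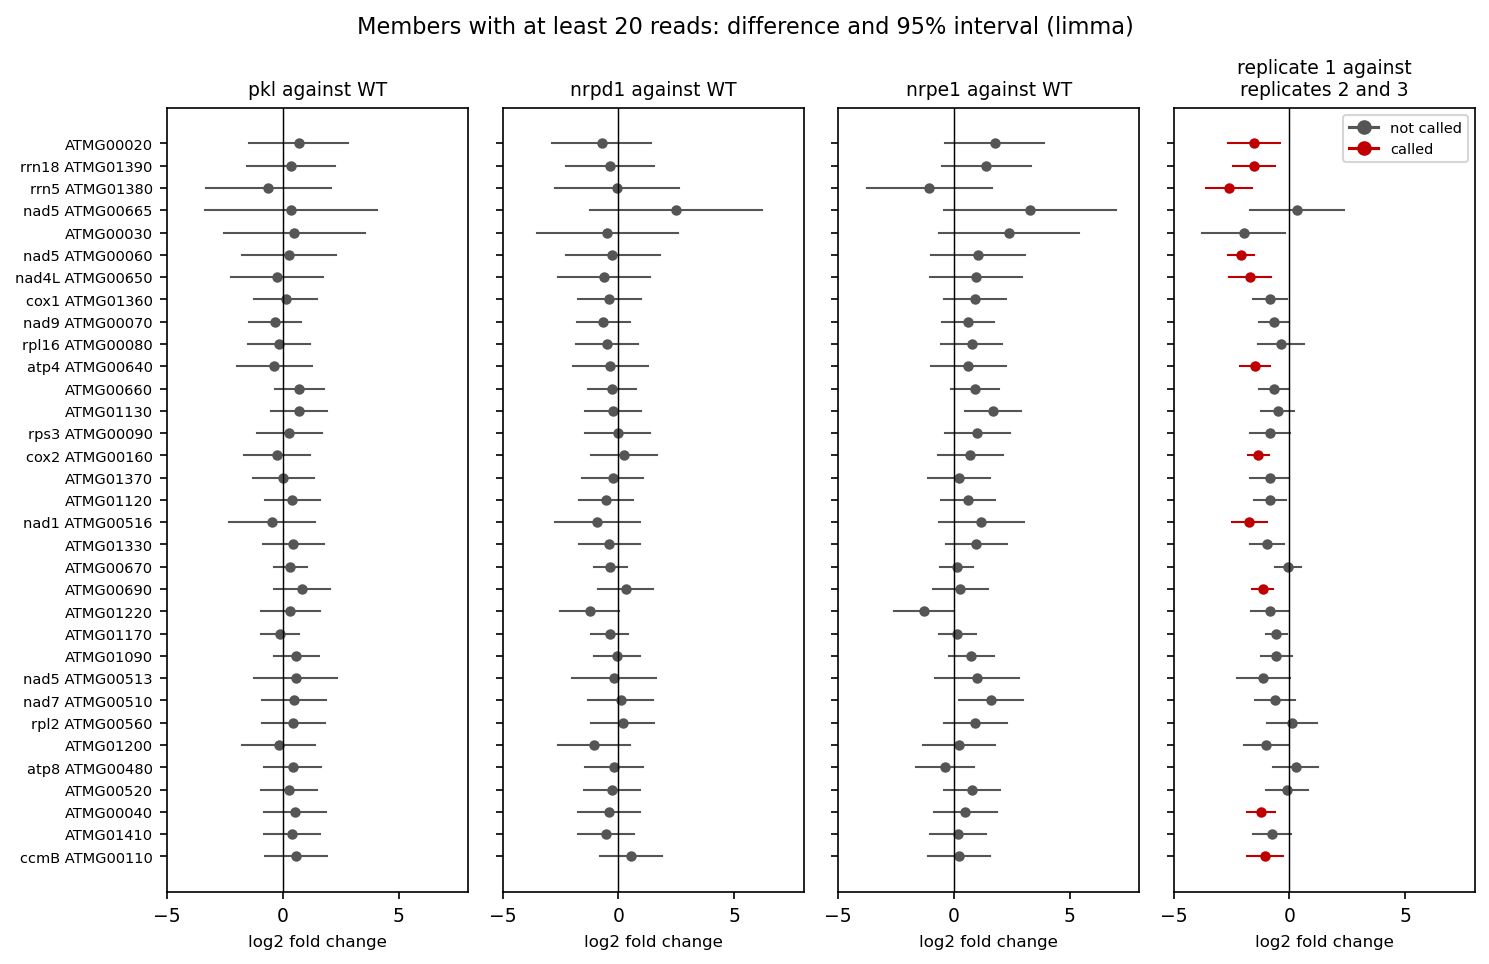
Log2 fold change with its 95% interval (limma) for the 33 tested mitochondrial genes with at least 20 reads, in pkl, nrpd1 and nrpe1 against WT and in replicate 1 against replicates 2 and 3, ordered by mean RPKM from the top. Red marks a called gene and gray one that was not called. No gene is called against WT, and 11 are called lower in replicate 1.

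Since the total entering a library can move every mitochondrial gene at once, the same fit was run with each mitochondrial value divided by the mitochondrial share of its library, so that the genes were compared within the organelle. Again 0 of 49 were called in pkl against WT (1.9% of all features), 0 of 49 in nrpd1 (0.972%) and 0 of 49 in nrpe1 (0.435%), with 2, 2 and 4 genes at an unadjusted p under 0.05. On this scale 29 of the 49 estimates were below 0 in pkl, 17 in nrpd1 and 36 in nrpe1. The median log2 fold changes were -0.13, 0.18 and -0.55. Since rRNA holds nearly all of the divisor, the genes other than rRNA can move together. atp4 had a log2 fold change of -0.94 in pkl (unadjusted p = 0.0256, limma adjusted p = 0.230) and of -0.94 in nrpe1 (unadjusted p = 0.0254, limma adjusted p = 1.00). nad4L of complex I was at -0.82 in pkl (limma adjusted p = 0.250). In nrpe1 the lowest unadjusted p belonged to ATMG01220, at -2.61 (unadjusted p = 0.00373, limma adjusted p = 0.469), followed by rrn5 at -2.65 (limma adjusted p = 1.00), or -2.15 without nrpe1 replicate 2. In nrpd1 the lowest unadjusted p belonged to ccmB, at 1.60 (limma adjusted p = 0.934), on at most 3 reads a library. ATMG00020 was at 0.13 in pkl (-0.16 to 0.41), -0.17 in nrpd1 (-0.45 to 0.12) and 0.15 in nrpe1 (-0.13 to 0.44), or 0.11 without nrpe1 replicate 2. It is most of the divisor itself, which limits how far these values can move.

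The clearest difference among the libraries followed the replicate number. Number 1, 2 and 3 each occur once per genotype, and what the number stands for is not given in the labels. The comparison was set up with the earlier results of these data known. The mitochondrial share of replicate 1 was at -1.52 on the log2 scale relative to replicates 2 and 3, a ratio of 0.349, with the lowest library of the genotype in 4 of 4 cases (exact permutation test within genotypes, two-sided, p = 0.0494 over 81 arrangements). Without nrpe1 replicate 2 it was at -1.12 (exact permutation p = 0.0185), and for the 143 genes other than rRNA at -0.99 (exact permutation p = 0.0370). The chloroplast share was at -1.67 (exact permutation p = 0.0123). Adjusted over the 3 tests of all 12 libraries by Benjamini-Hochberg, p was 0.0494 for the mitochondrial share, 0.0494 for the genes other than rRNA and 0.0370 for the chloroplast share, each from the exact permutation p.

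Gene by gene, 11 of 49 mitochondrial genes (22.4%) were called lower in replicate 1 and 0 higher, against 4.54% of all features called lower and 2.28% called higher. The median log2 fold change of the 49 genes was -0.84, against -0.10 over all features. Of 107 chloroplast genes tested, 76 were called lower and 0 higher, with a median of -1.69. Counting the genes whose replicate 1 was the lowest library in every genotype gave 11 of 49 (22.4%), close to the 22.0% of all features, so that count does not set the mitochondrial genes apart. The 2 sets of 11 shared 9 genes. No mitochondrial gene had replicate 1 as its highest library in all 4 genotypes, against 11.3% of all features.

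The 11 genes came from several roles. rrn5 had the lowest estimate, with a log2 fold change of -2.61 ± 0.45 (SE; limma adjusted p = 0.00126). It was at 1.02 to 4.67 RPKM in the 4 replicate 1 libraries and at 4.25 to 30.1 RPKM in the other 8, and the 2 groups overlapped only through pkl, where replicate 1 was at 4.67 and replicate 3 at 4.25 RPKM. Of complex I, the nad5 piece ATMG00060 was at -2.08 ± 0.25 (limma adjusted p = 1.52e-04), with 0.711 to 2.00 RPKM in replicate 1 and 2.53 to 12.0 RPKM in replicates 2 and 3. Those groups did not overlap. nad1 ATMG00516 was at -1.74 ± 0.34 (limma adjusted p = 0.00262), with 0.170 to 1.52 RPKM in replicate 1 and 0.595 to 6.11 RPKM in replicates 2 and 3. nad4L was at -1.70 ± 0.41 (limma adjusted p = 0.00867), with 0.727 to 1.47 RPKM in replicate 1 and 1.70 to 17.4 RPKM in replicates 2 and 3, again without overlap.

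Of the other complexes, atp4 was at -1.49 ± 0.29 (limma adjusted p = 0.00262), with 0.761 to 1.77 RPKM in replicate 1 and 1.96 to 9.83 RPKM in replicates 2 and 3. cox2 was at -1.35 ± 0.20 (limma adjusted p = 5.75e-04), with 0.563 to 1.69 RPKM in replicate 1 and 1.58 to 4.79 RPKM in replicates 2 and 3. The groups were apart for atp4 and overlapped for cox2. ATMG00020 (-1.53) and rrn18 (-1.52) had nearly the estimate of the share they dominate. Their calls did not hold without the 3 WT libraries (limma adjusted p = 0.101 for ATMG00020 and 0.0533 for rrn18) or without the 3 pkl libraries (limma adjusted p = 0.116 and 0.0527). The rest were ATMG00040 (-1.23), ATMG00690 (-1.16) and ccmB (-1.07), the last on at most 3 reads in a library. cox1 and nad9 had estimates of -0.83 (limma adjusted p = 0.0717) and -0.67 (limma adjusted p = 0.102), and were not called.

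**Figure D5:**
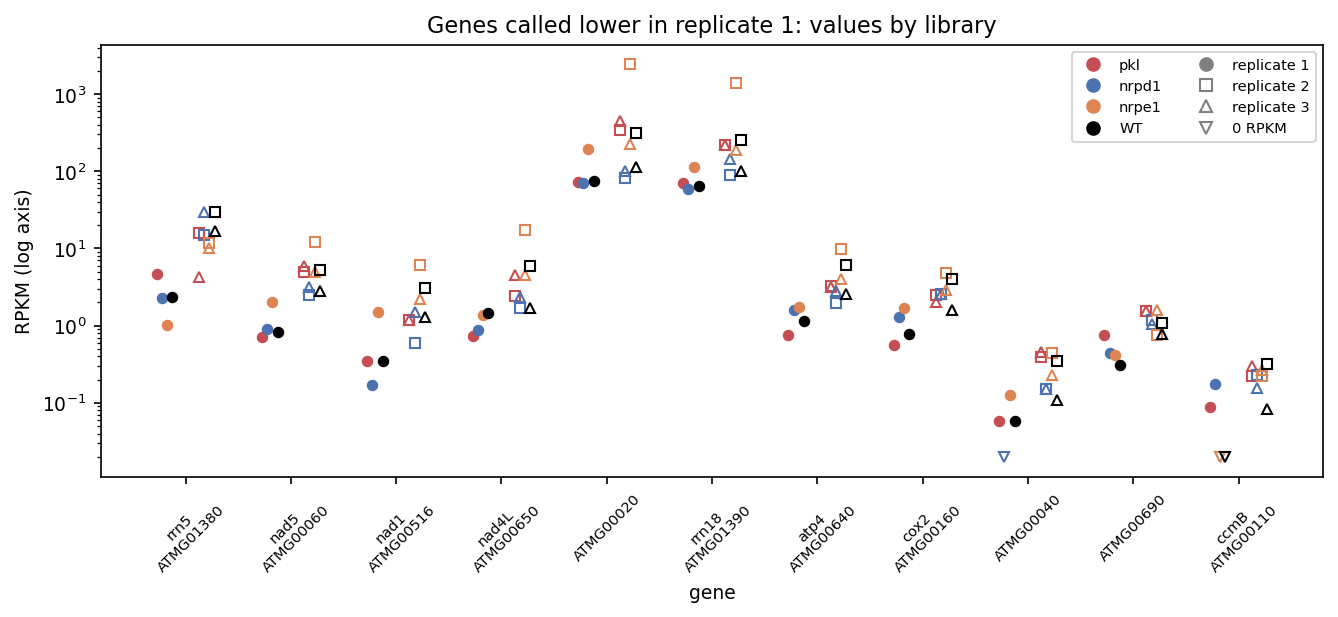
RPKM on a log axis in each library for the 11 mitochondrial genes called lower in replicate 1, with replicate 1 (filled) left of replicates 2 and 3 (open) for each gene. Colors mark pkl, nrpd1, nrpe1 and WT, and triangles pointing down mark 0 RPKM. The nad5 piece ATMG00060 lies at 0.711 to 2.00 RPKM in replicate 1 and at 2.53 to 12.0 RPKM in replicates 2 and 3, and nad4L, atp4 and ATMG00690 do not overlap between these sets either, while the other genes do.

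Nuclear markers of more than 1 organ also differed by replicate number, as did many other features. At an adjusted p under 0.05 without the fold threshold (limma), 12.4% of all features were higher in replicate 1 and 26.3% lower. With the 2-fold threshold these were 2.28% and 4.54%. The few markers below are therefore not set apart from all features. LHCB2.1, a light-harvesting protein of the shoot, was at 2649.5 to 3871 RPKM in replicate 1 and 350.1 to 1238 RPKM in replicates 2 and 3, a log2 fold change of 2.19 (limma adjusted p = 4.24e-07). AP1, a flower marker at or below 0.904 RPKM, was at -1.29 (limma adjusted p = 0.0184), the other one past the 2-fold threshold. LHCB1.3 of the shoot was at 0.49 (limma adjusted p = 0.0138) and PYK10 of the root at 0.28 (limma adjusted p = 0.0241). RBCS1A was at -0.08 (limma adjusted p = 0.635), and the root marker EXP7, the flower marker AG and both seed markers did not pass. The part of the markers, or of what the number stands for, in the mitochondrial values was not tested.

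Within the organelle, the sign of the difference by replicate number depended on the scaling. With the values divided by the mitochondrial share, 0 genes were called lower and 4 higher in replicate 1, against 4.49% and 2.3% of all features. They were rpl16 (1.12, limma adjusted p = 0.00209), ATMG00520 (1.11, limma adjusted p = 0.00792), ATMG00670 (1.34, limma adjusted p = 0.0196) and rpl2 of the large ribosomal subunit (1.54, limma adjusted p = 0.0246), log2 fold changes all. Divided by the mitochondrial reads other than rRNA, 0 were called higher and 2 lower, and divided by the median ratio over mitochondrial genes, 0 were called higher and 1 lower. rRNA holds nearly all of the divisor in the first scaling, and the share of the 143 other genes was 3.51% to 5.44% in the replicate 1 libraries and 1.24% to 4.43% in the other 8. rpl16 was at 1.22, 3.00, 4.69 and 2.06 RPKM in replicate 1 of pkl, nrpd1, nrpe1 and WT and at 1.14 to 10.8 RPKM in replicates 2 and 3, with no call before scaling (-0.36, limma adjusted p = 0.554).

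No nuclear gene of 4 lists that serve the mitochondrion passed the test. Of 36 nuclear respiratory chain subunits, 17 genes of mitochondrial transcription, RNA processing and decay, 8 of mitochondrial genome maintenance and 8 of the mitochondrial stress response, 0 were called in any comparison with WT (1.9% of all features in pkl, 0.972% in nrpd1 and 0.435% in nrpe1) or by replicate number (4.54% lower and 2.28% higher). In lists of 8 to 36 genes a count of 0 does not set the lists apart from all features. Their median log2 fold changes lay between -0.11 and 0.32. In pkl against WT the maintenance list had the highest, 0.32, and the transcription and processing list 0.24, against 0.07 over all features. At an adjusted p under 0.05 without the fold threshold (limma), 1 gene of each of those 2 lists was higher in pkl, against 1.83% of all features, and the lists of subunits and stress genes had 0. For replicate 1 against replicates 2 and 3 at that threshold, 2 subunits were higher and 4 lower, against 12.4% and 26.3% of all features. Of the maintenance list 1 gene was higher and 2 were lower. The transcription and processing list and the stress list each had 0 higher and 1 lower.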

How the data were processed

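Total RNA of 12 seedling libraries was purified with poly-T beads and prepared with the TruSeq stranded mRNA kit. Per the labels and the study's methods, the authors trimmed the reads (CASAVA 1.8, Trim Galore 0.4.0), aligned and counted them on TAIR10 over genes and transposable elements (Subread 1.5.1) and used edgeR. Multi-mapping and strand settings are not given in the sources used here. The deposited values are RPKM, so the authors' normalization fixes the depth, and edgeR was not run here. Reads were recovered from the RPKM steps of 28130 features above 0. Tested on simulated data, this step gave back 12 of 12 totals and the exact reads of 99.83% of features.

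RPKM values were tested with limma 3.58.1 (R 4.3.3) on log2(RPKM + 0.1), with a trend, over all 12 libraries and 23669 features of 64791, and adjusted by Benjamini-Hochberg over all of them. A fold change on this scale understates the change of low genes. On simulated data 99 of 100 raised and 98 of 100 lowered 4-fold changes were called for pkl against WT (n = 3 each), with 11 of 23563 unchanged features. The changed features were drawn only from those expected to hold 20 or more reads in a library of mean size. The spread between libraries was set alike for all features and not taken from these data. The rate was not tested for the mitochondrial genes, most of which held fewer reads than that. Of the 49 that entered the test, 16 had at most 3 reads in every library. The within-organelle fit divided ATMG rows by the mitochondrial share of the library over its mean. Shares were tested by exact permutation (Python 3.11.15, scipy 1.17.1), and copies found with BLAST 2.17.0 on TAIR10.1.

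The mitochondrial genes and all gene lists were chosen with earlier results of these data known. Values in every library are given for called genes (at most 4 per direction where more than 6 were called), rRNA, the 5 highest genes and the highest of each role. cox1, cox2, atp4, nad9, rps3, nad7 and the other genes named outside that rule were chosen after their values were seen. The labels number the replicates but do not say that libraries of the same number belong together. The deviations of same-numbered libraries correlated with WT at 0.36 to 0.56 for pkl, 0.29 to 0.56 for nrpd1 and 0.15 to 0.56 for nrpe1. In each mutant the 0.56 belonged to number 1. Correlations between libraries of unlike number were not set beside these, so a pairing of the samples was not tested. P-values measure the spread between these libraries only. Alternatives were other pseudocounts and filters, median-ratio scaling, voom, the replicate block and leaving out each library.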

Additional observations from a re-analysis of the deposited data

How the results depend on the processing

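The count of 0 mitochondrial genes called against WT stayed at 0 in pkl, nrpd1 and nrpe1, on both scales, under each of 16 or 17 alternatives per comparison. These included pseudocounts of 1 and 0.01, other filters on low values, median-ratio scaling, and the fit with the replicate block, which changed no call and gave 0 in each comparison. For the mitochondrial share of reads, leaving out each library in turn gave log2 differences of 0.12 to 1.27 in pkl, -0.99 to 0.02 in nrpd1 and 0.47 to 2.28 in nrpe1. The sign in nrpd1 turned without WT replicate 2, the WT library with the most mitochondrial reads, at 0.02. Pairing the libraries by number left these differences at 0.56, -0.55 and 1.61, with exact permutation p of 0.250, 0.750 and 0.250, the smallest p that 3 pairs allow being 0.250.

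For replicate 1 against replicates 2 and 3, the 11 genes called lower became 6 with a pseudocount of 1 and stayed within 9 to 14 under the alternatives that kept all 12 libraries, with 0 higher throughout. Leaving out the 3 libraries of 1 genotype gave 8 to 13. Within the organelle the 4 genes called higher became 2 lower when scaled to mitochondrial reads other than rRNA and 1 lower when scaled by the median ratio. There, leaving out the libraries of 1 genotype gave 2 to 5 calls, with 1 higher and 1 lower without pkl and 2 of each direction without nrpe1. The cause was not tested. Of 874 values of single genes under alternatives, 28 lost a call, 3 gained one and 0 reversed a call. ATMG00020, rrn18 and ccmB were among those that lost it, and the scaling calls of rpl16, ATMG00520, ATMG00670 and rpl2 did too. Estimates without a call were not stable in sign. In pkl against WT within the organelle, the 22-base nad5 exon ran from -1.63 to 2.5, and rrn5 in nrpd1 against WT ran from -1.13 to 0.99. Depth limits all of this: outside rRNA each library held 248 to 810 mitochondrial reads.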
